A study of Mus musculus with 16 samples.

Results

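The cytokines that signal through the shared receptor gp130 were followed in mouse colon as 8 of the 16593 genes named on the array, read by 13 of its 25697 probes. They were chosen by the gene symbol that the platform annotation gives each probe: the ligands Il11, Il6, Osm and Lif, the receptor chains Il6st, Osmr and Il11ra1, the transcription factor Stat3 and the feedback inhibitor Socs3. Of these 9 genes 8 had a probe: Stat3 and Lif had 3 probes each, Osm had 2, and the others 1. No probe carried the symbol Il11ra1, so the alpha receptor of interleukin 11 was not analysed here. Whole colons of male C57Bl/6J mice came in 3 groups: 6 samples from mice given dextran sulfate sodium (DSS) and methylthioadenosine (MTA), 6 from mice given DSS alone and 4 untreated controls. DSS, a sulfated glucose polymer, damages the epithelium of the colon and is a common way to bring on colitis in mice. MTA is a nucleoside with a sulfur atom that cells form as they make polyamines. No dose, duration, age or time of sampling is in the labels. Nor is it stated that the samples of a group were different animals, and p-values therefore cover the spread between these samples only, which may be technical.

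Each ligand of this family binds its own receptor chains and draws in gp130, the product of Il6st. Receptor-bound JAK kinases then phosphorylate STAT3, which enters the nucleus and switches on target genes. One of these is Socs3, whose product blocks gp130 and its kinases and so closes a negative loop. In the colon, gp130 and STAT3 signalling is known for its part in epithelial repair and in the acute response to injury, with interleukin 11 made mainly by stromal cells and oncostatin M by myeloid cells.

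Promoter windows of the RefSeq annotation (build GRCm38.p6, 300 bases each, of which the last 50 follow the gene's start) were set beside the values, because Il11 and Socs3 had the largest estimated rises among the members. The table held 10 windows for 8 of the 9 genes, all but Osm. The STAT core motif TTCNNNGAA stood in 1 of these 10 windows, that of Socs3, against 8.3% of all 32851 windows. The AP-1 motif TGANTCA stood in 4 of the 10, those of Il6, Il11, Lif and Osmr, against 7.81% of all windows. Both motifs read the same on either strand and do not overlap in these windows. The Socs3 match, TTCTTAGAA, began 154 bases before the start, and the Il11 match, TGAGTCA, began 98 bases before it. Il11 has 2 windows, and the one at its downstream start is shown with that of Socs3, in lower case with the matches in capitals. The Il11 window lies at chr7:4778092-4778391 and the Socs3 window at chr11:117969317-117969616, both on the minus strand.
Il11: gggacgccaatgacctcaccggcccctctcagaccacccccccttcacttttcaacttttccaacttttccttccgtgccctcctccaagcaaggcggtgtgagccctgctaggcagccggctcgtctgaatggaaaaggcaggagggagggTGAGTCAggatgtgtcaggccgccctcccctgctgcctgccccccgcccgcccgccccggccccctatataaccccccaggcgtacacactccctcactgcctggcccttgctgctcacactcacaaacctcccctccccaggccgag
Socs3: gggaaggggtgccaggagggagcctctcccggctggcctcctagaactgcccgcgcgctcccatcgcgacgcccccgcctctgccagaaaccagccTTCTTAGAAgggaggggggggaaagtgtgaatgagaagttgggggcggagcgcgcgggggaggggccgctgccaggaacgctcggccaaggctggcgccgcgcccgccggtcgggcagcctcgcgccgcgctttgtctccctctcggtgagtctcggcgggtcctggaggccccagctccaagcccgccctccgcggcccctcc
A match is a description of the letters only, and binding was not measured.

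All values are log2 of the authors' normalised intensities, and fold changes are differences of group means on that scale, ± the standard error of the limma fit. A change is said to pass the test at a limma adjusted p under 0.05 over all 25697 probes. The array medians were all 6.81 on the log2 scale, so the arrays had been put on a common scale before deposit. A probe near or below that median is dim, and any background left in it makes its fold change too small. Correlations between arrays of a group were 0.912 to 0.991 over the brighter 50% of probes, and the number of arrays limited the precision. Of 12 probes of colon epithelium markers, such as the caudal-type factor Cdx1 and the keratin Krt20, the means of all 12 lay above the array median in every group.

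DSS against control asked which genes of the axis the colitis treatment moved. All 8 measured genes rose with DSS through at least 1 probe, and Il11 and Socs3 had the largest estimates. In all, 11 of the 13 probes rose and 0 fell, against 4.12% of all probes higher and 2.74% lower (6.86% either way), and 21.4% had an unadjusted p under 0.05. The same 11 probes had no overlap between the DSS and the control arrays, against 5.19% of all probes higher and 4.12% lower without overlap. The median log2 fold change of the 13 probes was 1.08, and that of all probes -0.02. The members were chosen with earlier results of these arrays known, so their counts, here and in the comparisons below, are not independent evidence.

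**Figure D1:**
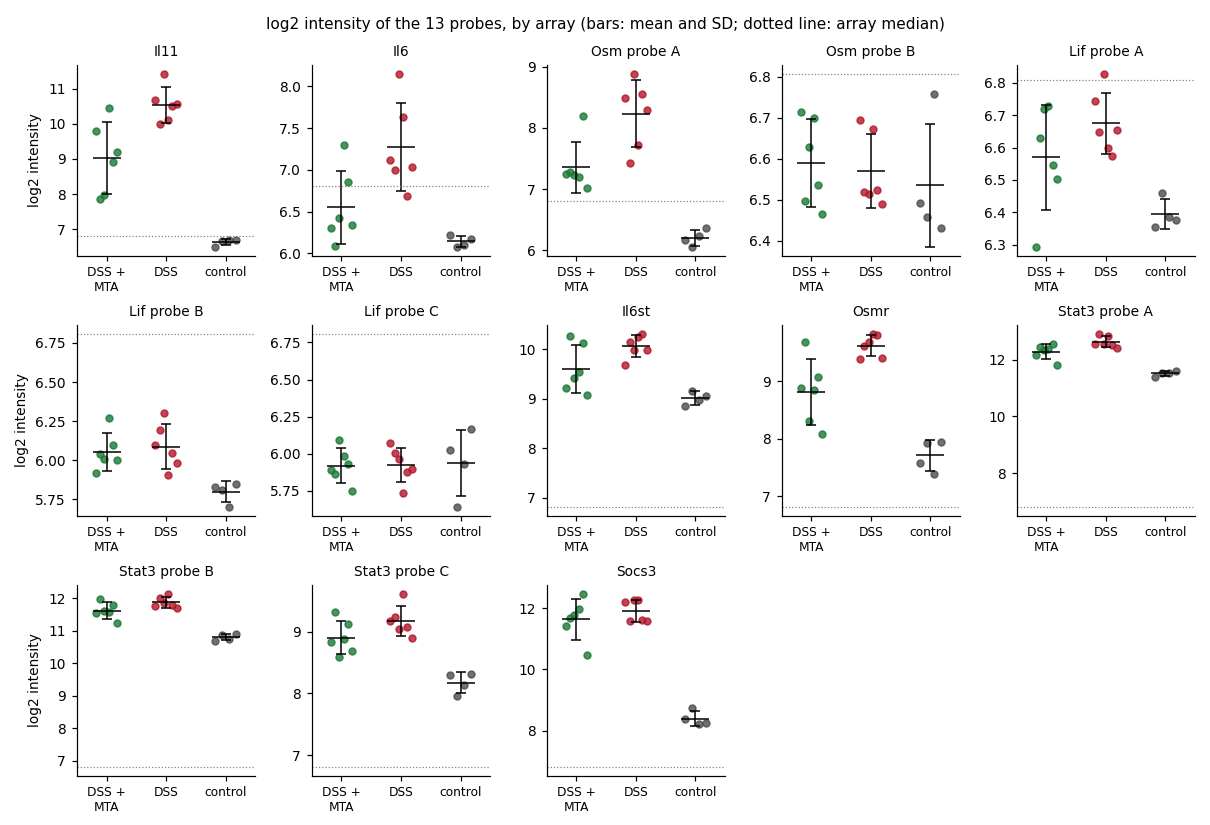
log2 intensity of the 13 probes, 1 panel each with its own vertical scale, with a point per array for DSS + MTA, DSS and control (left to right), bars for the mean and SD, and a dotted line at the array median of 6.81. For 11 of the probes every DSS array lies above every control array, while Osm probe B and Lif probe C overlap in all groups and stay below the dotted line.

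Il11, a gp130 cytokine of stromal cells, had values of 7.87 to 10.46 with a median of 9.04 in DSS + MTA, of 9.997 to 11.42 with a median of 10.52 in DSS, and of 6.49, 6.67, 6.69 and 6.70 in the controls. The controls lay together below the array median, all treated arrays lay above them, and the DSS + MTA arrays spread over more of the scale than either other group. With DSS it rose by 3.90 ± 0.42 (14.95-fold, limma adjusted p = 8.17e-05). Since the control level is dim, that fold depends on the background left in the values.

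Osm encodes oncostatin M, a cytokine of neutrophils and macrophages, and its probe A had values of 7.01 to 8.19 with a median of 7.24 in DSS + MTA, of 7.43 to 8.89 with a median of 8.40 in DSS, and of 6.17, 6.05, 6.23 and 6.37 in the controls. DSS arrays all lay above the controls, and the rise was 2.03 ± 0.26 (4.08-fold, limma adjusted p = 2.78e-04). Probe B, annotated to the same transcript, lay below the array median in all 16 arrays and differed by 0.03 ± 0.08 (limma adjusted p = 0.849), so the probes of this gene disagree. Il6, the founding cytokine of the family, had values of 6.09 to 7.29 with a median of 6.38 in DSS + MTA, of 6.69 to 8.15 with a median of 7.07 in DSS, and of 6.22, 6.07, 6.10 and 6.17 in the controls. Of its arrays, 4 of 6 with DSS + MTA, 1 of 6 with DSS and 4 of 4 controls lay below the array median, and the DSS arrays lay above all controls, with a rise of 1.13 ± 0.25 (limma adjusted p = 0.0145).

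Lif encodes leukaemia inhibitory factor, and its gene is the next protein-coding one to Osm on chromosome 11. Its probes were dim: 16 arrays out of 16 lay below the array median for probes B and C, and 15 of 16 for probe A. Probe A had values of 6.29 to 6.73 with a median of 6.59 in DSS + MTA, of 6.57 to 6.83 with a median of 6.65 in DSS, and of 6.35, 6.46, 6.39 and 6.38 in the controls. Probe A rose by 0.28 ± 0.08 (limma adjusted p = 0.0434) and probe B by 0.29 ± 0.08 (limma adjusted p = 0.0399), both small and near the threshold. Probe C, annotated to another Lif transcript than probes A and B, differed by -0.01 ± 0.09 (limma adjusted p = 0.952). Leaving out single arrays ended the call of probe A in 11 of 16 fits and that of probe B in 8 of 16, with adjusted p up to 0.107 for A without control replicate 1 and 0.130 for B without control replicate 3.

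The receptor chains rose as well. Osmr, the oncostatin M receptor chain that pairs with gp130, had values of 8.08 to 9.69 with a median of 8.87 in DSS + MTA, of 9.39 to 9.83 with a median of 9.66 in DSS, and of 7.58, 7.92, 7.39 and 7.94 in the controls. The DSS arrays lay close together and above all controls, with a rise of 1.92 ± 0.24 (3.78-fold, limma adjusted p = 2.20e-04). Il6st, which encodes gp130 itself, had values of 9.07 to 10.27 with a median of 9.49 in DSS + MTA, of 9.68 to 10.31 with a median of 10.08 in DSS, and of 8.85, 9.16, 8.98 and 9.06 in the controls. It rose by 1.05 ± 0.20 (2.07-fold, limma adjusted p = 0.00629), again without overlap between DSS and control.

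Stat3, the transcription factor that carries the signal to the nucleus, was read by 3 bright probes. Probe A had values of 11.81 to 12.56 with a median of 12.34 in DSS + MTA, of 12.42 to 12.90 with a median of 12.54 in DSS, and of 11.39, 11.54, 11.52 and 11.60 in the controls. Its rise with DSS was 1.11 ± 0.13 (limma adjusted p = 1.22e-04), and probes B and C gave 1.08 ± 0.12 and 0.99 ± 0.15. All 3 probes thus rose close to 2.1-fold, 2.16, 2.11 and 1.99 in turn.

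Socs3, the inhibitor that gp130 signalling induces against itself, had values of 10.48 to 12.47 with a median of 11.73 in DSS + MTA, of 11.58 to 12.27 with a median of 11.92 in DSS, and of 8.39, 8.72, 8.20 and 8.26 in the controls. Every treated array stood above every control. The rise with DSS was 3.53 ± 0.29 (11.5-fold, limma adjusted p = 8.56e-06), and it ranked 5 among all probes by p. Unlike Il11, Socs3 stood above the array median in the controls too.

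DSS with MTA against DSS alone asked what MTA changed in the inflamed colon. Of the 13 probes 0 passed the test in limma, against 0.144% of all probes (0.0311% higher and 0.113% lower), while 7 had an unadjusted p under 0.05, against 11.5% of all probes. The estimates of 12 of the 13 probes were below 0, all but that of Osm probe B. The groups overlapped for each of the 13 probes (without overlap, 0.315% of all probes were higher and 0.327% lower). The median difference was -0.29, and that of all probes 0.01.

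Il11 had the largest estimate, -1.51 ± 0.37 (limma adjusted p = 0.122), with 6 of 6 DSS + MTA arrays below the DSS mean and a 95% interval of -2.30 to -0.72. The fit shares 1 spread over the 3 groups, whose Il11 SDs were 1.02 in DSS + MTA, 0.50 in DSS and 0.10 in control. The small spread of the dim controls thus makes this interval narrower. Osm probe A was at -0.87 ± 0.23 (limma adjusted p = 0.151, 6 of 6 arrays below the DSS mean) and Osmr at -0.81 ± 0.21 (limma adjusted p = 0.143, 5 of 6). With single arrays left out, Osmr passed the test in 1 of 16 fits, and its limma adjusted p ran up to 0.288. That fit left out DSS + MTA replicate 2, which had the highest Osmr value of its group (-0.99 ± 0.17, limma adjusted p = 0.0224). Over all probes 170 passed in that fit, against 37 with all arrays. Il6 was at -0.72 ± 0.23 (limma adjusted p = 0.237) and Il6st at -0.45 ± 0.18 (limma adjusted p = 0.353).

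Stat3 probes A, B and C were at -0.35 ± 0.11, -0.25 ± 0.11 and -0.27 ± 0.13 (limma adjusted p = 0.246, 0.367 and 0.449). Socs3 was at -0.29 ± 0.26 (limma adjusted p = 0.707), with 4 of 6 DSS + MTA arrays below the DSS mean and a 95% interval of -0.83 to 0.26. The difference between the estimates of Il11 and Socs3 was -1.22, and the exact permutation test over the 12 treated arrays gave p = 0.0671 (two-sided, 6 against 6, smallest possible p 0.00217), so the 2 genes were not shown to differ. This pair was chosen after its values were seen. The Lif probes A to C were at -0.11 ± 0.07, -0.03 ± 0.07 and -0.01 ± 0.08, and Osm probe B at 0.02 ± 0.07.

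**Figure D2:**
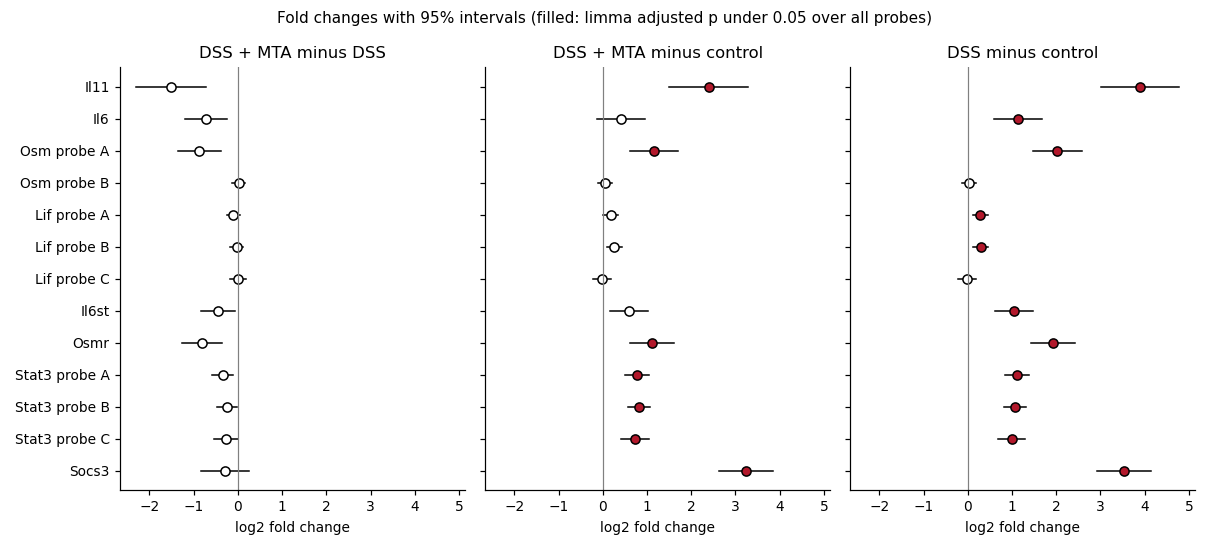
log2 fold change of the 13 probes (rows) in 3 comparisons (panels), as points with 95% intervals of the limma fit, filled where the adjusted p over all probes was under 0.05. In the panel of DSS + MTA minus DSS 0 points are filled, and in that of DSS minus control 11 are.

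DSS with MTA against control asked how much of the pattern was left with MTA. Against control, 7 of the 13 probes rose and 0 fell, against 1.21% of all probes higher and 0.872% lower (2.08% either way). Without overlap were 8 of the 13, all higher, against 2.69% of all probes higher and 2.3% lower, and 10 had an unadjusted p under 0.05, against 15% of all probes. The 7 probes that rose belonged to Il11, Osm, Osmr, Stat3 and Socs3. The comparison shares the control arrays with DSS against control and the DSS + MTA arrays with the comparison before it, so the 3 sets of values are not independent. Il11 rose by 2.39 ± 0.42 (limma adjusted p = 0.00866), against 3.90 with DSS alone, and Socs3 by 3.24 ± 0.29 (limma adjusted p = 5.22e-05), against 3.53 with DSS alone. Stat3 probes A, B and C rose by 0.77 ± 0.13, 0.82 ± 0.12 and 0.73 ± 0.15, and the call of probe C was lost without control replicate 2 (0.65, limma adjusted p = 0.0634) or control replicate 3 (0.71, limma adjusted p = 0.0664).

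Osm probe A rose by 1.16 ± 0.26 (limma adjusted p = 0.0296) and Osmr by 1.11 ± 0.24 (limma adjusted p = 0.0241). Both calls were lost in several fits. The Osm call was lost without any 1 of the 4 controls (limma adjusted p = 0.0655, 0.0883, 0.0869 and 0.0685 without replicates 1 to 4). Its estimates in these fits were 1.14, 1.10, 1.16 and 1.21. Over all probes 413, 281, 156 and 222 passed in the same fits, against 535 with all arrays. The Osmr call was lost without control replicate 1, 3 or 4 (limma adjusted p = 0.0599, 0.0971 and 0.0506), without DSS + MTA replicate 5 (limma adjusted p = 0.0571), and with only the 2 groups in the fit (limma adjusted p = 0.0803). Il6st was at 0.60 ± 0.20 (limma adjusted p = 0.154), Il6 at 0.41 ± 0.25 (limma adjusted p = 0.497) and Lif probe B at 0.26 ± 0.08 (limma adjusted p = 0.114), none of which passed. For Il11, Osm probe A, Il6, Osmr, Il6st, Stat3, Socs3 and Lif probes A and B the group mean of DSS + MTA lay below that of DSS and above that of control, and DSS + MTA and DSS were not separated by the test.

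Other genes of gp130 signalling and of related receptors were counted in the same way. A list of further ligands, receptors, kinases and inhibitors was analysed through 43 probes of 27 genes. With DSS 1 probe rose and 1 fell, a share near the 6.86% of all probes called, and the median was 0.03, against -0.02 for all probes. The probe that fell was Ctf1, which encodes cardiotrophin 1, another gp130 ligand, with means of 7.24 ± 0.23 in DSS and 7.97 ± 0.18 in control (SD, n = 6 and 4), a difference of -0.73 ± 0.14 (limma adjusted p = 0.00584). The probe that rose was Adam17, the protease that sheds the interleukin 6 receptor, by 0.22 ± 0.06 (limma adjusted p = 0.0399). The Adam17 call was lost in 8 of 16 fits with an array left out (without DSS replicates 1, 2, 3, 5 or 6, or control replicates 2, 3 or 4), with adjusted p up to 0.144 without control replicate 3. It was also lost among the brighter 50% of probes (limma adjusted p = 0.0559), with only the 2 groups in the fit (0.0720) and with the intensity trend (0.155). The inducible inhibitor Cish was at -0.65 ± 0.22 (limma adjusted p = 0.0947), the receptor chain Il31ra at 0.21 ± 0.08, the adaptor Gab1 at -0.32 ± 0.15 and 1 probe of the ligand Clcf1 at 0.17 ± 0.08, and none passed.

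Between DSS with MTA and DSS 0 of these 43 probes passed in limma, against 0.144% of all probes, and 1 had an unadjusted p under 0.05, against 11.5% of all probes: 1 of the 4 probes of the phosphatase Ptpn11 at -0.22 ± 0.10 (limma adjusted p = 0.415). Il31ra was at -0.12 ± 0.07, and Clcf1 at -0.10 ± 0.05 through another of its 3 probes than the one above. Against control, DSS with MTA had 1 probe lower, Ctf1 at -0.60 ± 0.14 (limma adjusted p = 0.0367), and 0 higher, against 0.872% and 1.21% of all probes. That call was lost with only the 2 groups in the fit (limma adjusted p = 0.0643) and in 8 of 16 fits with an array left out (without DSS + MTA replicates 1, 2, 4 or 5, DSS replicate 5, or control replicates 2, 3 or 4), with adjusted p up to 0.132 without control replicate 3. Outside the rule for naming genes, and chosen after the values were seen, the alpha receptor Il6ra differed by 0.10 ± 0.12 with DSS, and the 3 probes of Lifr, the chain that leukaemia inhibitory factor binds, by 0.06, 0.08 and 0.01. None of them passed, and the group means of the 3 Lifr probes lay below the array median. Socs1, a relative of Socs3, differed by 0.04 ± 0.07 at a level below the array median.

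**Figure D3:**
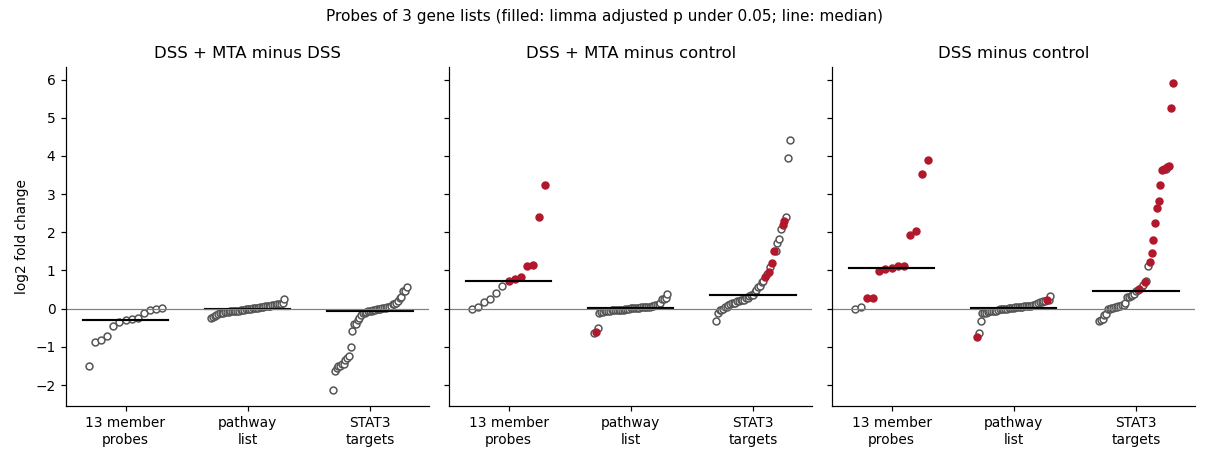
log2 fold change of each probe of the 13 members, of the 43-probe pathway list and of the 43-probe list of STAT3 targets, in 3 comparisons (panels); points are sorted within a list, filled where the limma adjusted p over all probes was under 0.05, and lines mark medians. In DSS minus control the pathway list has 2 filled points and the STAT3 targets have 15, all 15 above 0.

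Genes that STAT3 is known to regulate were counted in the same way. The list of 28 genes was chosen with earlier results of these arrays known, so its direction is not independent evidence. It was measured by 43 probes for 26 genes. With DSS 15 probes of 12 genes rose and 0 fell, against 4.12% of all probes higher and 2.74% lower, and the median was 0.48, against -0.02 for all probes. Among them, Cebpb, a transcription factor of the acute-phase response, had means of 11.87 ± 0.19 in DSS and 10.08 ± 0.06 in control (SD, n = 6 and 4) and rose by 1.79 ± 0.17 (limma adjusted p = 2.39e-05). The protease inhibitor Timp1 rose by 3.65 ± 0.37 and 3.75 ± 0.38 through its 2 probes, the AP-1 subunit Junb by 1.45 ± 0.17, the siderophore binder Lcn2 by 3.64 ± 0.53, the adhesion molecule Icam1 by 1.23 ± 0.19 and the acute-phase protein Saa3 by 3.72 ± 0.59.

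With MTA added to DSS 0 of the 43 probes passed in limma, against 0.144% of all probes, and 11 had an unadjusted p under 0.05, against 11.5% of all probes. Lcn2 was at -2.14 ± 0.48 (limma adjusted p = 0.0946), the Timp1 probes at -1.45 ± 0.33 and -1.46 ± 0.34 (limma adjusted p = 0.104 and 0.110) and Cebpb at -0.59 ± 0.15 (limma adjusted p = 0.128). Against control, DSS with MTA had 6 probes of 5 genes higher and 0 lower, against 1.21% and 0.872% of all probes. They were those of Junb, Cebpb, Timp1, Icam1 and Bcl3. Bcl3, a regulator of NF-kappaB named here because it completes that count, rose by 0.97 ± 0.17 (limma adjusted p = 0.00916), and Junb by 1.50 ± 0.17 (limma adjusted p = 4.52e-04). Junb differed by 0.04 ± 0.15 between DSS with MTA and DSS.

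In whole-colon RNA, fewer cells of a type and less RNA per cell cannot be told apart, and markers of several cell types moved with the groups. Of 20 neutrophil marker probes 8 rose with DSS and 0 fell, against 4.12% of all probes higher and 2.74% lower. The lectin receptor Clec4d (1.79 ± 0.21) and the calprotectin subunit S100a8 (3.93 ± 0.47) had the smallest p. The mean level of the list per array was 6.37 to 6.79 in DSS + MTA, 6.73 to 7.18 in DSS and 6.06 to 6.17 in control. Most of its probes were dim: the group means of 13 of the 20 lay below the array median in DSS + MTA and in DSS, and those of 19 in control. Of 11 fibroblast marker probes 5 rose, with the smallest p for Pdpn (1.75 ± 0.26) and the collagen Col3a1 (1.27 ± 0.33) and with mean levels of 8.89 to 10.07 in DSS + MTA, 9.76 to 11.03 in DSS and 8.57 to 9.36 in control. Of 8 endothelial probes 5 rose, with the smallest p for Eng (1.02 ± 0.16) and Cdh5 (0.59 ± 0.10) and with mean levels of 7.66 to 8.59 in DSS + MTA, 8.34 to 8.80 in DSS and 7.81 to 8.03 in control.

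Smooth muscle markers had 1 of 11 probes higher with DSS, against 4.12% of all probes: 1 of the 4 of Acta2 (0.26 ± 0.07), with a Mylk probe at 0.24 ± 0.13. By limma 0 of 14 macrophage and monocyte probes (7 at an unadjusted p under 0.05, Itgam at 0.26 ± 0.08 and Fcgr1 at 0.52 ± 0.16), 0 of 12 epithelial probes (3 unadjusted, a Cdx1 probe at -0.52 ± 0.17 and Krt20 at 0.52 ± 0.21) and 0 of 8 T and NK cell probes (1 unadjusted, Klrb1c at -0.19 ± 0.09, with Nkg7 at -0.35 ± 0.26) passed. Over all probes 6.86% passed with DSS and 21.4% had an unadjusted p under 0.05. Of 6 B and plasma cell probes 1 fell, against 2.74% of all probes: Jchain (-0.30 ± 0.08), with Mzb1 at -1.09 ± 0.56. With MTA added to DSS, 0 probes of these 8 marker lists passed in limma, with 6 of the 8 endothelial, 7 of the 11 fibroblast and 7 of the 20 neutrophil probes at an unadjusted p under 0.05, against 11.5% of all probes. Against control, DSS with MTA had 2 of 20 neutrophil probes higher, against 1.21% of all probes: S100a8 (2.58) and 1 probe of Ltf (1.74), the second named to complete that count. Another Ltf probe lay below the array median, with means of 5.99 in DSS + MTA and 5.90 in control. The part of these cell types in the members' values was not tested.

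Members and marker lists were also compared array by array within the groups. Deviations from the own group's mean over all 16 arrays are given here as a description, since all values of an array share its RNA and its normalisation. Osm probe A went with the mean of the neutrophil markers (Pearson r = 0.903, Spearman rho = 0.818), a list of mostly dim probes. Osmr and Il6st went with the endothelial mean (r = 0.886 and 0.883) and with the fibroblast mean (r = 0.714 and 0.800), but also with the smooth muscle mean (r = 0.659 and 0.782) and the macrophage mean (r = 0.694 and 0.812), and Il6st went with Osmr (r = 0.813). Stat3 probe A had r = 0.794 with the smooth muscle, 0.759 with the endothelial, 0.583 with the macrophage and 0.520 with the fibroblast mean, and r = 0.670 with Socs3. Stat3 probes B and C had their highest r with the endothelial mean instead (0.882 and 0.619), and 0.830 and 0.575 with the smooth muscle mean. Their r with Socs3 was 0.598 and 0.368. Il11 had r = -0.472 with the T and NK cell, -0.464 with the macrophage, -0.414 with the endothelial, -0.270 with the fibroblast and 0.356 with the neutrophil mean, and r = 0.044 with Socs3. Without DSS + MTA replicates 2 and 4, its most extreme arrays, these marker values for Il11 were -0.525, -0.174, -0.163, -0.062 and 0.419 in the same order, so those with macrophages, endothelium and fibroblasts rest on these arrays. With the smooth muscle, B and plasma cell and epithelial means, Il11 had r = -0.399, -0.373 and -0.167. Without the same 2 arrays these were -0.177, -0.320 and -0.417. By rank, Il11 had rho = -0.297 with the T and NK cell and -0.100 with the B and plasma cell mean. DSS + MTA replicate 3, which was not left out, had the highest mean of both lists, 8.043 and 8.665, with Il11 at 7.959. What that array alone adds to these r values was not tested.

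The genes whose within-group pattern was most like that of Il11, by Pearson r among 12127 brighter named probes, were Supv3l1, Tyms, Spc24, Kti12 and Slc23a4. Supv3l1, a mitochondrial RNA helicase, and Tyms, the thymidylate synthase, both had r = 0.911 over 16 arrays (rho = 0.944 and 0.968), and r = 0.833 and 0.882 without the 2 arrays farthest in Il11, DSS + MTA replicates 2 and 4. Spc24, a kinetochore protein, had r = 0.903, Kti12 0.894 and the transporter family member Slc23a4 0.892. For Tyms r was 0.930 within the 6 DSS + MTA arrays and 0.924 within the 6 DSS arrays. Being the highest of many, these values would be high in part by selection. Between groups their estimates ran opposite to Il11: Tyms, by the probe with the highest r, fell by 0.92 on the log2 scale with DSS (limma adjusted p = 0.0120) and was at 0.40 ± 0.18 for DSS with MTA against DSS (limma adjusted p = 0.406). Its other probe above the array median was at -0.89 ± 0.27 with DSS and did not pass (limma adjusted p = 0.0606). The other 4 were at -0.43 to -0.22 with DSS, and none of them passed.

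**Figure D4:**
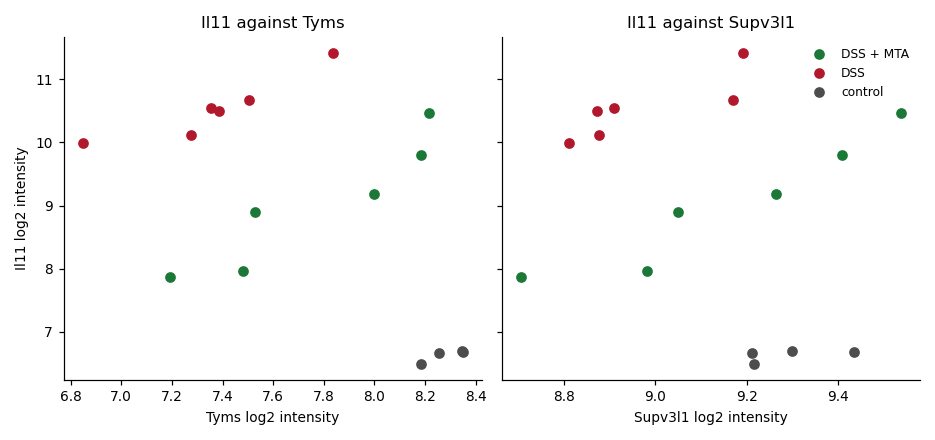
Il11 log2 intensity (vertical) against the log2 intensity of Tyms and of Supv3l1 (horizontal), with a point per array for DSS + MTA, DSS and control. Within each treated group Il11 is higher in arrays with more Tyms or Supv3l1, while the 4 control arrays combine the lowest Il11 with high Tyms.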

How the data were processed

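Total RNA of whole colon was amplified, biotin-labelled and hybridised to 1-colour Illumina bead arrays, per the labels' protocols. Intensities per probe as the authors deposited them, linear and from 42 to 41634 units, were the starting point. How these were background-corrected and normalized, and in which software, is not given in the sources used here. Medians were 112 units on each array, so a normalization between arrays had been applied. Any background left makes fold changes of dim probes too small. The 32 columns of un-normalized signals and detection p-values are named by array position only, could be given to no sample and were not used. Hence no probe has a detection call.

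Here log2 was taken without further normalization. All 25697 probes were kept. The fit used limma 3.58.1 (R 4.3.3) with lmFit and eBayes on 3 group means over 16 arrays, without covariates, two-sided and with Benjamini-Hochberg adjustment over all probes. The steps were tested on simulated data. Gene symbols came from the platform annotation, with 23978 probes named, and 23962 identifiers found in the RefSeq table changed 0 symbols.

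Groups and replicate numbers come from the titles. No 2 arrays were identical. Named are all members, the 6 and 3 genes with the smallest p in the pathway and STAT3 target lists (DSS against control, and DSS with MTA against DSS), 2 genes per marker list and 5 genes most like Il11. The members and lists were chosen with earlier results of these data known. Alternatives covered normalization, background, filters, models, blocks, weights and left-out arrays.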

Additional observations from a re-analysis of the deposited data

Results flagged for a closer look

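Among the 13 probes in 3 groups, 39 sets of arrays were looked at for a single array far from the others, and 2 were found, where chance gives about 1 in 20. Il11 in control replicate 1 was 6.491, below the nearest control at 6.668, and all 4 controls were below the array median. Osm probe A in DSS + MTA replicate 5 was 8.189, above the nearest array of its group at 7.287. That array also had the highest neutrophil marker mean of its group, 6.789, and the highest Socs3, 12.473. Their part in the Osm value was not tested.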

How the results depend on the processing

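Quantile normalization, normexp background correction and an intensity trend in eBayes changed no call or sign of the 13 probes. Among the brighter 50% of probes 8 member probes remained, those of Il11, Il6st, Osmr, Stat3 and Socs3 and Osm probe A. Il6 and Lif were thus not covered there. With 1 probe per gene 8 remained, and all 8 rose with DSS in both settings. Over all probes 1776 and 1356 passed with DSS in these settings, 1028 and 839 of them higher. Replicate numbers were not taken to pair the samples: deviations correlated over 0.1 in 7 of 14 same-numbered and 23 of 70 differently numbered pairs of arrays, and 4 of 16 arrays correlated best with their own number. The replicate block gave Osmr a call for DSS with MTA against DSS (adjusted p = 0.0468), 1 member probe in all, and 2 STAT3 targets lower. That block called 269 of all probes in this comparison, 236 of them lower. It ended the call of Lif probe B with DSS (adjusted p = 0.0729), as did fitting only the 2 groups (0.0509), and the accession-order block ended that of Lif probe A (0.0519). The pathway list had 1 call with DSS, Ctf1 without Adam17, under the upper 50% of probes, the replicate block or the trend, and 0 for DSS with MTA against control with only 2 groups in the fit. With arrays left out, the members called were 9 to 11 for DSS against control, 0 to 1 for DSS with MTA against DSS and 4 to 7 for DSS with MTA against control, lowest without control replicate 3. Without that array 156 of all probes passed for DSS with MTA against control, against 535 with all arrays. Signs turned only for values near 0: Lif probe C at 0.01 for DSS (0.0143) and for DSS with MTA (0.0091) against control under the replicate block and at 0.0037 for DSS with MTA against DSS under array weights. With arrays left out, Lif probe C ran from -0.1141 to 0.0601 (DSS, control), -0.0433 to 0.0283 (DSS with MTA, DSS) and -0.1193 to 0.0549 (DSS with MTA, control). For the addition of MTA to DSS, Lif probe B ran from -0.0748 to 0.0111 and Osm probe B from -0.0044 to 0.0458. The cause was not tested.

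Over all probes 1764 were called with DSS, 37 for the addition of MTA and 535 for both agents against control. Array weights gave 2694, 64 and 829, and the replicate block 269 for the second. With only 2 groups in the fit the second gave 0 and the third 343, and with arrays left out they ran from 872 to 2200, 0 to 170 and 156 to 854. Dim probes limit what can be seen of Lif and Osm probe B.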
